A study of Mus musculus with 2 samples.

Results

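The network described here comprised the transcription factors that set up and maintain the trophectoderm, the outer layer of the blastocyst that gives rise to the placenta. Its 10 genes (Cdx2, Eomes, Elf5, Tead4, Gata2, Gata3, Tfap2a, Tfap2c, Hand1 and Ets2) were found as every probe set of the array whose platform annotation names exactly 1 gene and that gene is on this list. They held 11 of 23521 such probe sets, with Gata3 measured by 2 of them. The array was hybridised with RNA of 2 mouse embryonic stem cell samples, 1 from a stable line carrying EWS-OCT4A-GFP and 1 from a stable line carrying GFP. Both lines derive from the cells labelled NIWA ESC, were cultured with LIF and received 1 µg/ml doxycycline, by which endogenous OCT-4 was lowered in both. EWS-OCT4A is a fusion of the EWS protein with the A isoform of the pluripotency factor OCT4, of a kind found in human tumours. The promoter driving the transgene, and whether a line is 1 clone or a pool of cells, are not stated in the labels. There was 1 sample per group, so no difference below has a replicate check or a p-value, and without a sample free of doxycycline a difference cannot be assigned to one of the lines.

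In the mouse embryo, TEAD4 works with the Hippo effector YAP in outer cells to switch on Cdx2, and Gata3 acts beside Cdx2. EOMES, ELF5, TFAP2C and ETS2 then sustain trophoblast stem cells, and GATA2 and HAND1 serve trophoblast differentiation, where TFAP2A is expressed and GATA3 acts again. OCT4 and CDX2 repress each other, and embryonic stem cells that lose OCT4 are known to turn towards trophectoderm. In the embryo several of these factors also act elsewhere, EOMES in mesoderm and endoderm, GATA2 in blood, HAND1 in heart and TFAP2A in neural crest and surface ectoderm.

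The deposited values lie on a log2 scale and were taken as they stand. Levels are compared only within a probe set, because probes of different genes bind with different strength. The array correlated with r = 0.935 between the samples over all 33793 probe sets, which are not independent of each other. A probe set was counted as lower or higher when its values differed by at least 2-fold, a log2 difference of 1, and the higher of them reached 4.10, the median of all values, called the floor below. On this definition 11.7% of the 14195 single-symbol probe sets at or above the floor were lower in EWS-OCT4A-GFP cells and 9.28% were higher.

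All 11 probe sets of the network read lower in EWS-OCT4A-GFP cells than in GFP cells. For 7 of the 11 the difference reached 2-fold, set against 11.7% of the array, and none was at least 2-fold higher. The median log2 difference of the 11 was -1.94, or 3.82-fold lower, whereas that of all 14195 probe sets at or above the floor was 0.03. All 11 reached the floor in GFP cells. Those of Hand1, Tfap2a and Elf5 reached it only there, so their counting as measured rests on the GFP value. As the RNA comes from whole cultures, fewer cells expressing a gene and less of its RNA per cell cannot be told apart. The 2-fold line fell between Ets2, the member nearest to it on the lower side with a log2 difference of -1.53, and Elf5 at -0.81.

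**Figure D1:**
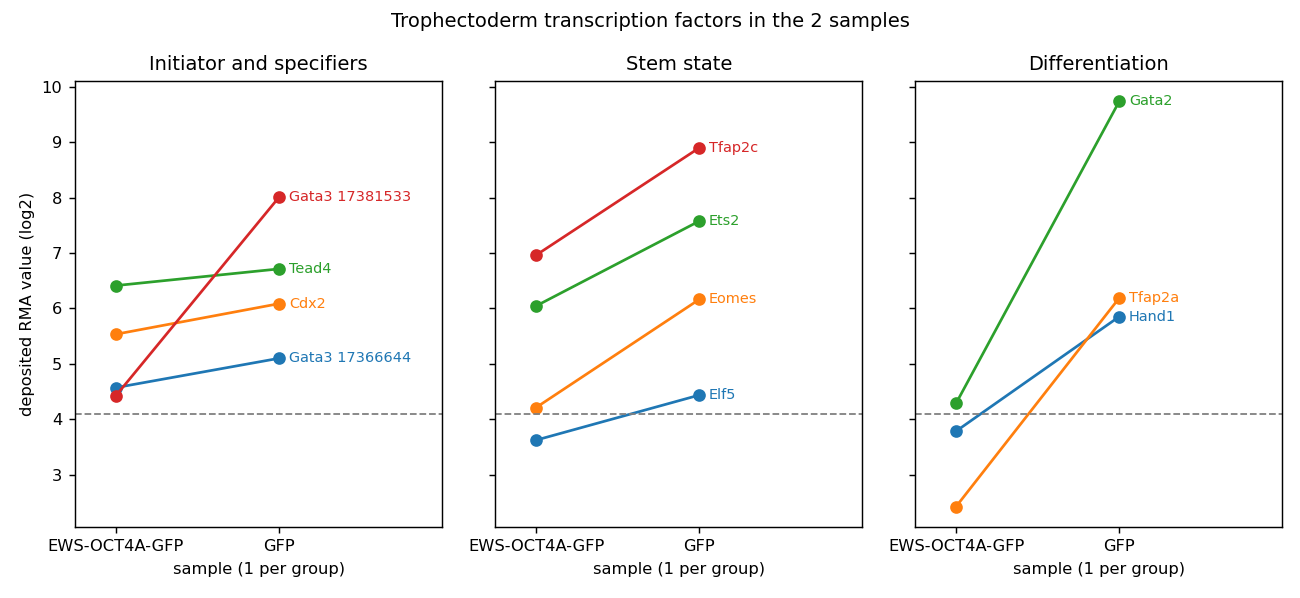
Deposited log2 value of each network probe set (vertical axis) in EWS-OCT4A-GFP cells and in GFP cells (horizontal axis), 1 sample each, in a panel per role, with the floor of 4.10 as a dashed line. All 11 lines climb towards GFP cells, most steeply for Gata2, then for Tfap2a and Gata3 probe set 17381533, and least for Tead4.

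The initiator of the programme differed least. Tead4 (probe set 17471278), the TEA domain factor that acts at the top of the programme, read 6.41 in EWS-OCT4A-GFP cells and 6.71 in GFP cells. Its log2 difference was -0.30, or 1.23-fold lower. Of the array's probe sets at or above the floor, 31.3% had a difference at least as low, so the value lies within the bulk of the array. Cdx2 (probe set 17455307), the homeodomain factor that specifies trophectoderm, read 5.54 in EWS-OCT4A-GFP cells and 6.09 in GFP cells. The difference was -0.55, and 21.4% of the array lay as low. Both genes read well above the floor in both samples, and neither differed by 2-fold.

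Gata3, the zinc finger factor that acts in parallel with CDX2, gave discordant values from its probe sets. Probe set 17381533 read 4.43 in EWS-OCT4A-GFP cells and 8.01 in GFP cells, a log2 difference of -3.58 or 12.0-fold. Probe set 17366644 read 4.57 in EWS-OCT4A-GFP cells and 5.10 in GFP cells, a difference of -0.53. The probe sets were close to each other in EWS-OCT4A-GFP cells and apart in GFP cells. Their differences lay 3.05 apart on the log2 scale. Among 543 genes with more than 1 probe set at or above the floor the median such gap was 0.41, and 4 of them, Gata3 included, had a gap of this size or more. The sources used here do not give the part of the gene that each probe set reads, and the size of the Gata3 difference depends on the probe set taken.

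Among the factors of the trophoblast stem state, 3 of 4 were at least 2-fold lower, against 11.7% of the array. Eomes (probe set 17522876), a T-box factor, read 4.21 in EWS-OCT4A-GFP cells and 6.16 in GFP cells, a log2 difference of -1.95 or 3.86-fold. Tfap2c (probe set 17380153), the AP-2 gamma gene, which mouse germ cells and trophoblast use, read 6.96 in EWS-OCT4A-GFP cells and 8.90 in GFP cells. Its difference of -1.94 was close to that of Eomes, but its EWS-OCT4A-GFP value stayed far above the floor whereas that of Eomes lay just over it. Ets2 (probe set 17327465), an ETS factor activated by ERK, read 6.04 in EWS-OCT4A-GFP cells and 7.57 in GFP cells, a difference of -1.53 or 2.89-fold. Elf5 (probe set 17373739), an ETS family factor that reinforces Cdx2 and Eomes in trophoblast stem cells and whose promoter is methylated in mouse embryonic stem cells, read 3.63 in EWS-OCT4A-GFP cells and 4.44 in GFP cells. With the lower value set to the floor its difference of -0.81 shrank to -0.34, so Elf5 read near or under the floor in both samples.

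Gata2, Tfap2a and Hand1 are grouped here as differentiation factors, with Gata3 described among the specifiers. Each of these 3 was at least 2-fold lower, against 11.7% of the array, but Tfap2a and Hand1 reached the floor only in GFP cells. Gata2 (probe set 17460634), which with GATA3 drives placental lactogen expression in mouse trophoblast giant cells, read 4.29 in EWS-OCT4A-GFP cells and 9.74 in GFP cells. The log2 difference was -5.45, or 43.6-fold, and 0.0916% of the array's probe sets at or above the floor lay as low. Its EWS-OCT4A-GFP value was just over the floor. Tfap2a (probe set 17292011), the AP-2 alpha gene, read 2.43 in EWS-OCT4A-GFP cells and 6.19 in GFP cells. Its difference of -3.76 was also among the lowest of the array, where 0.549% lay as low, but with the EWS-OCT4A-GFP value set to the floor it was -2.09. Hand1 (probe set 17263063), a bHLH factor required for giant cell formation, read 3.79 in EWS-OCT4A-GFP cells and 5.85 in GFP cells, a difference of -2.07 that became -1.76 with the floor. Differences that involve a value under the floor are of uncertain size, since RMA compresses low values.

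**Figure D2:**
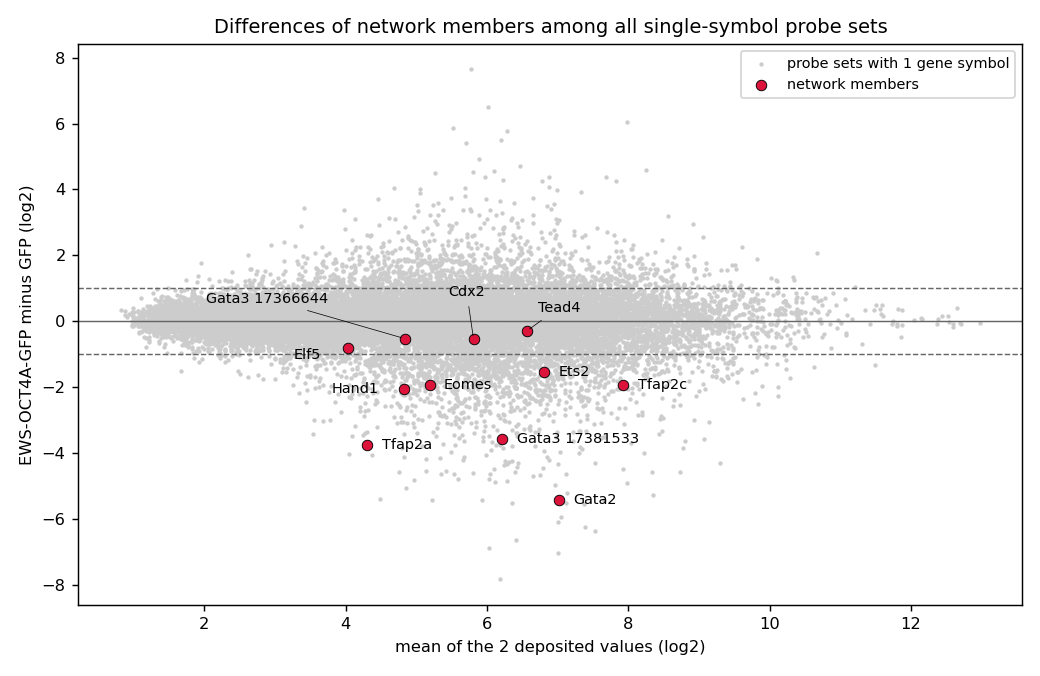
Log2 difference, EWS-OCT4A-GFP minus GFP (vertical axis), against the mean of both deposited log2 values (horizontal axis) for 23521 single-symbol probe sets in grey and the 11 network probe sets in red; dashed lines mark a 2-fold difference. All red points lie below 0, and Gata2, Tfap2a and Gata3 probe set 17381533 lie at the lower edge of the grey cloud.

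Upstream sequence was available from RefSeq, build GRCm38.p6, for 7 of the 10 genes, as 10 windows of 250 bases before a transcription start. The entries held Cdx2, Elf5, Eomes, Ets2, Gata2, Gata3 and Tfap2a. The windows of 3 genes are shown because they span the range of differences: Gata2, the member with the largest, and Cdx2 and Elf5, both within 2-fold. Capitals mark matches on either strand to the letters searched, which were AGATAA for GATA factors (a leading T in place of A and a final G in place of A were also taken), GGAATG for TEAD, CCGGAA for ETS, GCCNNNGGC for AP-2, TTTATNG for CDX, GGTGTGA for T-box, CATCTG for HAND and ATGCAAAT, the octamer that OCT factors bind. The ETS and TEAD letters can overlap, though no match overlapped another in these windows. The Gata2 window is chr6:88193641-88193890 on the plus strand, the Cdx2 window chr5:147307250-147307499 on the minus strand and the Elf5 window chr2:103411848-103412097 on the plus strand, each ending at the base before the annotated gene.
Gata2: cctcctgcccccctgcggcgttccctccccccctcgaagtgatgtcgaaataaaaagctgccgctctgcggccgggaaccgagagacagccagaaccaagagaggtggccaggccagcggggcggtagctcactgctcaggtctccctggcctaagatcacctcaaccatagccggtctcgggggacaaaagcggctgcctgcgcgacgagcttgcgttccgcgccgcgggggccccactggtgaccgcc
Cdx2: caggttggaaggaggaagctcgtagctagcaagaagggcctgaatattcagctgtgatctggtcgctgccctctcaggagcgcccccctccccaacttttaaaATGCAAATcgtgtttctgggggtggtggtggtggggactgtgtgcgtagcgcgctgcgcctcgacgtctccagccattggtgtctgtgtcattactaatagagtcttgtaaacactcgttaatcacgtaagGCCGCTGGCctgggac
Elf5: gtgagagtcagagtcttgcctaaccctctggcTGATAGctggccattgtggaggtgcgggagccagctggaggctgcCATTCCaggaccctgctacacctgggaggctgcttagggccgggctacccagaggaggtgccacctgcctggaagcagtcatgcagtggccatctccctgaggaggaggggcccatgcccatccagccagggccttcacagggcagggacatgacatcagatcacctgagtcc

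The Gata2 window shown held none of these letters, with 67.2% G and C and 22 CG dinucleotides, against medians of 52.4% and 6 over 32851 windows. A second Gata2 window, before a start inside the gene, held the TEAD letters 120 bases before that start and the AP-2 letters at 222 bases. The Cdx2 window held the octamer letters, which 1.60% of all windows hold, beginning 147 bases before the start, and the AP-2 letters, which 13.7% hold, beginning 16 bases before it. It was the only 1 of the 10 windows with the octamer. The Elf5 window held the GATA letters (26.5% of all windows) and the TEAD letters (12.6%), with 2 CG dinucleotides, the fewest of the 10 windows. A second Elf5 window, before a start inside the gene, held the T-box letters (3.33% of all windows). The Gata3 window held 3 matches to the AP-2 letters, beginning 246, 231 and 221 bases before the start, and 1 to the ETS letters (12.0% of all windows). No match was found in the Eomes, Ets2 and Tfap2a windows. These are matches of letters within a short window and not binding sites.

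Relatives that share a DNA-binding family with a member were measured by 46 probe sets for 45 genes, of which 19 lay under the floor in both samples. Of the 27 at or above it, 6 were at least 2-fold lower, against 11.7% of the array, and 1 was higher, against 9.28%, while 20 stayed within 2-fold. The median log2 difference of the 27 was -0.23, and that of all 46 was -0.11. The TEAD family was split. Tead3 read 4.23 in EWS-OCT4A-GFP cells and 7.32 in GFP cells, a difference of -3.09, whereas Tead4 differed by -0.30, Tead2 by -0.85 and Tead1 by 0.24. In the ETS family the epithelial factor Elf3 read 5.91 in EWS-OCT4A-GFP cells and 9.44 in GFP cells, a difference of -3.53. Elf4 differed by -3.37 and Elf1 by -2.52, each more than Elf5 or Ets2, while Gabpa differed by 0.86.

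Among GATA factors, Gata6, which serves primitive endoderm as well as trophoblast, read 3.79 in EWS-OCT4A-GFP cells and 5.995 in GFP cells, a log2 difference of -2.21. The blood factor gene Gata1 differed by -0.41 and Gata4, a heart and endoderm factor, by -0.12, with no value of either above 4.74. The other AP-2 genes read low in both samples, with 1 of their 4 probe sets at or above the floor (Tfap2e, -0.50). In the T-box family Tbx3, a factor of naive pluripotency, went the other way from Eomes, with 9.08 in EWS-OCT4A-GFP cells and 7.66 in GFP cells, a difference of 1.42. Tbx20 (-0.60), Tbx6 (-0.34) and Tbx4 (-0.23) stayed within 2-fold, and Tbx6 and Tbx4 read under the floor in EWS-OCT4A-GFP cells. Of the bHLH genes listed with Hand1, Tcf12, an E-protein that pairs with HAND factors, differed by -1.19, Tcf3, another E-protein gene, by 0.69 and Twist1 by 0.28.

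**Figure D3:**
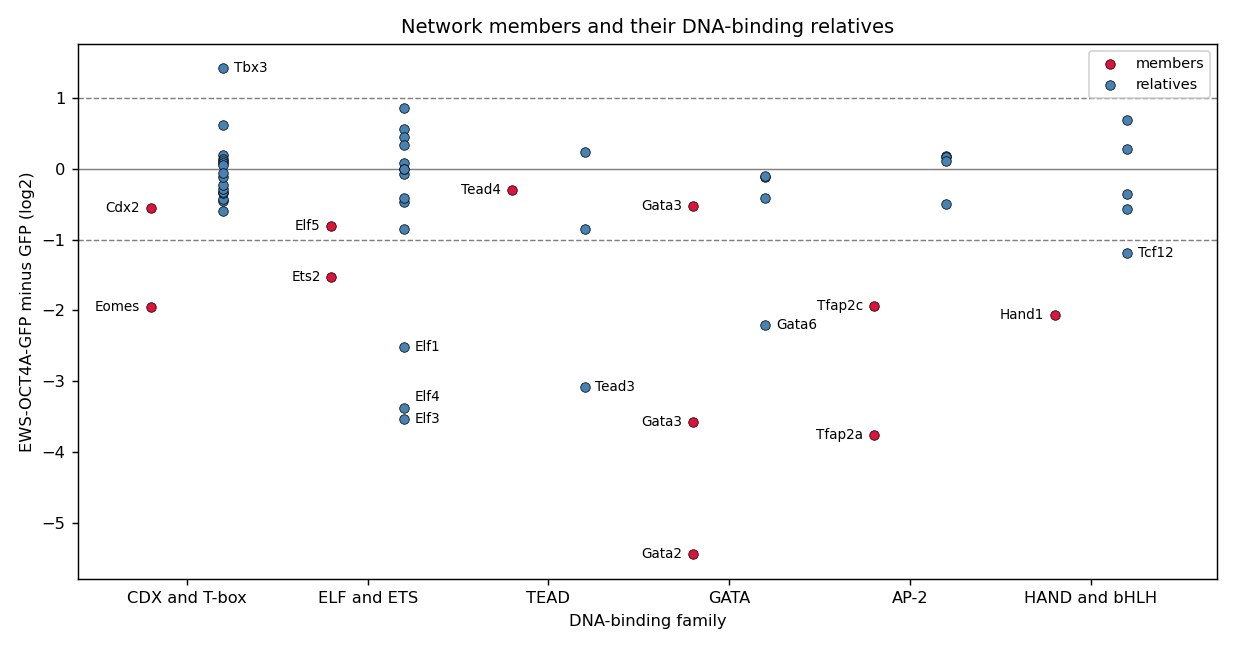
Log2 difference, EWS-OCT4A-GFP minus GFP (vertical axis), of network probe sets in red and of probe sets of relatives in blue, by DNA-binding family (horizontal axis); dashed lines mark 2-fold, and relatives at least 2-fold different with a value at or above the floor are named. Tead3, Elf3, Elf4, Elf1, Gata6 and Tcf12 lie below the lower line and Tbx3 above the upper one.

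Genes that act upstream of TEAD4 and CDX2 were read next. Hippo and Notch pathway genes had 20 probe sets for 18 genes, 19 of them at or above the floor. Of the 19, 5 were at least 2-fold lower, against 11.7% of the array, and 1 was higher, against 9.28%, with a median log2 difference of -0.46. Amot, the angiomotin gene, whose protein holds YAP out of the nucleus in inner cells, read 4.72 in EWS-OCT4A-GFP cells and 8.11 in GFP cells, a difference of -3.39. Wwtr1, which encodes the YAP relative TAZ, read 5.78 in EWS-OCT4A-GFP cells and 8.44 in GFP cells, and Amotl2 differed by -1.64. Hes1, a Notch target, was the 1 higher, with 6.49 in EWS-OCT4A-GFP cells and 5.14 in GFP cells. Of 10 probe sets for 7 genes of apical polarity and contractility, which set YAP activity in outer cells, 4 were lower, against 11.7% of the array, and 1 was higher, against 9.28%. Pard6b differed by -2.42, Prkcz, an atypical protein kinase C gene, by -2.40 and Pard3 by -1.56. Of 3 Rhoa probe sets, 1 differed by 1.26 and the others by -0.19 and 0.10, so Rhoa has no single direction here.

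Of 13 cofactors of the members, 12 reached the floor and 5 were at least 2-fold lower, against 11.7% of the array. None was at least 2-fold higher, against 9.28%, and the median log2 difference of the 12 was -0.67. Vgll3, a vestigial-like partner of TEAD proteins, read 4.11 in EWS-OCT4A-GFP cells and 8.46 in GFP cells, a difference of -4.35. Vgll1, another TEAD partner, differed by -1.59, with 3.35 in EWS-OCT4A-GFP cells and 4.94 in GFP cells. Cited2, a coactivator of AP-2 proteins, read 8.90 in EWS-OCT4A-GFP cells and 10.9 in GFP cells. Zfpm1, which encodes the GATA partner FOG1, differed by -1.62. The list was drawn up for partners of these families and includes the E-protein genes named above.

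Other transcription factors of trophoblast mostly read lower, as the network did. Of 25 probe sets for 24 genes, 23 reached the floor. Of the 23, 14 were at least 2-fold lower, against 11.7% of the array, and 1 was higher, against 9.28%, with a median log2 difference of -1.40 (-1.26 over the 25). Dlx3, a homeobox gene needed in the placental labyrinth, read 4.80 in EWS-OCT4A-GFP cells and 9.43 in GFP cells, a difference of -4.63. Pparg, a nuclear receptor of trophoblast, read 2.87 in EWS-OCT4A-GFP cells and 7.42 in GFP cells, a difference of -4.55 of uncertain size because of the low value. Peg3, an imprinted zinc finger gene, differed by -3.85 and Arid3a by -3.56. Among the 14, Pparg, Arid3a, Msx2, Cebpb and Cebpa reached the floor only in GFP cells. Their counting as measured rests on the GFP value, and their differences are of uncertain size.

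Further genes of the trophoblast stem state had 12 probe sets for 10 genes, 9 of them at or above the floor. Of the 9, 4 were at least 2-fold higher, against 9.28% of the array, and 2 were lower, against 11.7%, with a median log2 difference of 0.82. Plet1, a surface protein gene of trophoblast progenitors, read 6.22 in EWS-OCT4A-GFP cells and 10.2 in GFP cells, and Fgfr2, the FGF receptor gene of trophectoderm, differed by -3.12. Sox2, which trophoblast stem cells share with embryonic stem cells, read 9.87 in EWS-OCT4A-GFP cells and 5.50 in GFP cells. Gdf3 differed by 4.53, of uncertain size because its GFP value of 3.54 lay under the floor. Sox2 and Gdf3 thus read higher in EWS-OCT4A-GFP cells, whereas Eomes, Tfap2c and Ets2 read lower there. Of the 4 higher (Gdf3, Sox2, Esrrb and Bmp4), Sox2 and Esrrb also stand on the list of inner cell mass factors. Gdf3 and Esrrb reached the floor only in EWS-OCT4A-GFP cells. Sall4, whose difference of 0.82 (probe set 17394865) is the median, stands on both lists too.

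Epithelial and placental genes downstream were read beside the network. All 21 probe sets for 19 trophectoderm epithelium genes reached the floor in at least 1 sample. Of the 21, 20 were at least 2-fold lower, against 11.7% of the array, and none was higher. The median log2 difference was -3.12. Among the 20, Dsp, Cldn6, Cldn7, Aqp9, Tspan8, Krt18 probe set 17322125 and Ndrg1 probe set 17312032 reached the floor only in GFP cells. Their counting as measured rests on the GFP value, and their differences are of uncertain size. Dab2, counted here, is a primitive endoderm marker too. The keratin gene Krt18 differed by -6.37 (probe set 17315245) and by -4.80 (probe set 17322125). Ndrg1 differed by -5.43 (probe set 17317652) and by -3.21 (probe set 17312032). Krt8 differed by -5.29 and Tinagl1 by -5.21. Products of differentiated placenta were measured by 20 probe sets for 18 genes, of which 12 lay under the floor in both samples. Of the other 8, 5 were lower, against 11.7% of the array, among them the fusion protein gene Syna (4.27 in EWS-OCT4A-GFP cells and 10.5 in GFP cells) and the retrotransposon-derived gene Peg10 (7.14 in EWS-OCT4A-GFP cells and 11.4 in GFP cells). Phlda2 differed by -2.65 and the adenosine deaminase gene Ada by -1.58. Mmp9, also counted as lower, reached the floor only in GFP cells. The placental lactogen genes Prl3d1 and Prl3b1 were listed but had no single-symbol probe set.

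**Figure D4:**
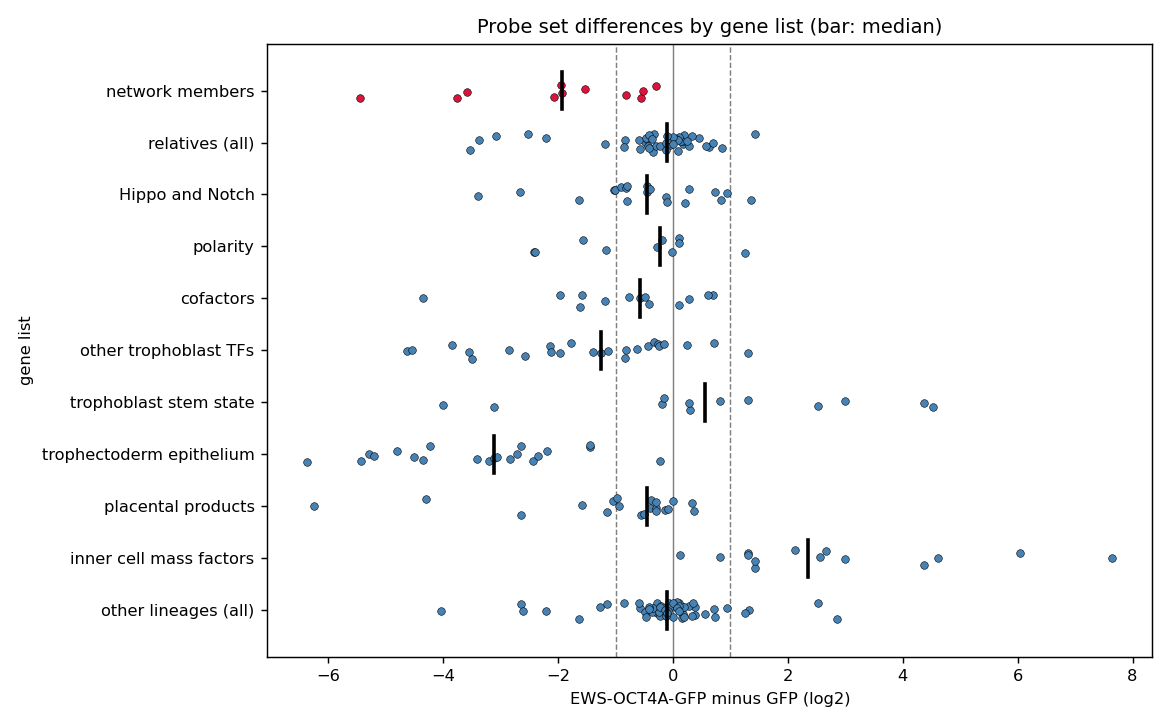
Log2 difference, EWS-OCT4A-GFP minus GFP (horizontal axis), of each probe set by gene list (vertical axis), with the median of the list as a black bar and 2-fold as dashed lines; the small vertical scatter of points within a list has no meaning. Medians are over all probe sets of a list. Those of the network in red (-1.94), other trophoblast factors (-1.26) and trophectoderm epithelium (-3.12) lie beyond the lower 2-fold line. Cofactors (-0.57), placental products (-0.46), Hippo and Notch (-0.45) and polarity (-0.23) lie between that line and 0. Trophoblast stem state is at 0.55 and inner cell mass factors at 2.34. Relatives (-0.11) and other lineages (-0.10) are near 0, with 19 and 25 probe sets under the floor in both samples.

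Factors of the inner cell mass, set against the network as its counterpart, read higher in EWS-OCT4A-GFP cells for all 14 probe sets of 13 genes. Of the 13 probe sets at or above the floor, 11 were at least 2-fold higher, against 9.28% of the array, with a median log2 difference of 2.56 (2.34 over the 14). Nr0b1 read 9.60 in EWS-OCT4A-GFP cells and 1.96 in GFP cells, a difference of 7.65 of uncertain size because of the low value. Tdgf1 differed by 6.04, Nanog by 4.61 and Sox2 by 4.37. Among the 11, Nr0b1, Esrrb and Prdm14 reached the floor only in EWS-OCT4A-GFP cells, so their counting as measured rests on that value. Pou5f1, which encodes OCT4, read 5.37 in EWS-OCT4A-GFP cells and 5.24 in GFP cells. Whether its probe set detects the transgene is unknown, so it does not check the labels. As markers of the labelled cell type, 9 of 10 embryonic stem cell genes reached the floor. Of the 9, 8 were at least 2-fold higher in EWS-OCT4A-GFP cells, against 9.28% of the array. All 10 together spanned 3.81 to 11.0 in EWS-OCT4A-GFP cells and 2.89 to 7.77 in GFP cells. The lowest value in each was that of Dppa5a, which lay under the floor in both. Fgf4, a growth factor gene of embryonic stem cells, read 8.38 in EWS-OCT4A-GFP cells and 4.09, under the floor, in GFP cells.

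Markers of fibroblasts and of the lineages in which the members also act were measured by 63 probe sets, of which 25 lay under the floor in both samples. Of the other 38, 7 were lower, against 11.7% of the array, and 4 were higher, against 9.28%, with a median log2 difference of -0.18 (-0.10 over the 63). For mesoderm, where Eomes acts, 8 of 10 reached the floor, and the listed symbols T and Tbxt had no single-symbol probe set. Of the 8, 0 were lower, and 1 was higher (Bmp4, also a pluripotent cell gene, by 2.53). For blood, where Gata2 acts, 6 of 9 reached the floor and none of the 6 differed by 2-fold. Values of the 9 ran from 2.54 to 4.52 in EWS-OCT4A-GFP cells and from 2.50 to 4.76 in GFP cells. For heart, where Hand1 acts, 3 of 10 reached the floor and none of the 3 differed by 2-fold. Values of the 10 ran from 2.79 to 5.50 in EWS-OCT4A-GFP cells and from 2.05 to 5.43 in GFP cells. For surface ectoderm and neural crest, where Tfap2a acts, 4 of 8 reached the floor. Of the 4, 1 was lower (Krt14, -1.28) and 1 was higher (Foxd3, 1.26). Krt14 read 3.15, under the floor, in EWS-OCT4A-GFP cells and 4.43, just over it, in GFP cells, so its difference is of uncertain size. With so few probe sets at or above the floor, the counts for these lineages cannot be told from the array's shares. Of 13 primitive endoderm markers 8 reached the floor, 4 of the 8 were lower, against 11.7%, and 1 was higher, with a median log2 difference of -0.68 over the 8. Their values ran from 2.87 to 7.66 in EWS-OCT4A-GFP cells and from 2.87 to 7.14 in GFP cells, with Dab2 at -2.65, Col4a1 at -2.62, Gata6 at -2.21 and Lama1 at 2.86. Fibroblast markers, which would report feeder cells, reached the floor in 10 of 14 cases, with 3 of the 10 lower and 1 higher, a median log2 difference of -0.01 over the 10 and values from 1.81 to 10.7 in EWS-OCT4A-GFP cells and from 1.64 to 9.35 in GFP cells. Postn differed by -4.04, Acta2 by -1.64, Fn1 by 1.33 and Pdgfra by -1.15. Postn read 2.025, under the floor, in EWS-OCT4A-GFP cells and 6.06 in GFP cells, so the size of its difference is uncertain. The part of these other cell types in the network's differences was not tested.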

How the data were processed

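RNA of 2 samples, 1 per stable line, was read on an Affymetrix whole-transcript array. Per the submitters' processing notes, the authors made the deposited values with Affymetrix Expression Console 1.1 and RMA, which corrects background, quantile-normalizes arrays and summarises probe sets. They were taken as log2 because they ran from 0.618 to 13.0. The deposited log2 values name no log base, and the design text speaks of duplicates whereas each line has 1 column. Quantile normalization hides a shift shared by most genes. The number of arrays limits the precision.

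Of 33793 probe sets, 23521 had 1 gene symbol, 1814 several and 8458 none. All 10 member symbols matched RefSeq (GRCm38.p6) by gene ID. The difference is EWS-OCT4A-GFP minus GFP. No test is possible. Every probe set was counted separately.

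The members, the 21 gene lists and the naming rule were chosen with earlier results of these data known. The rule names all members, relatives at least 2-fold different, up to 4 genes per list with the largest absolute difference at or above the floor, and the 5 genes nearest to the member with the largest difference. The motif letters and the comparison with neighbouring genes were chosen after the values were seen.

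Alternatives covered normalization, floor, size threshold and several probe sets per gene. The procedure was tested on simulated data. The differences were computed in pandas 2.3.3 and numpy 2.4.6 (Python 3.11.15), and loess in statsmodels 0.14.6.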

Additional observations from a re-analysis of the deposited data

How the results depend on the processing

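The count of network probe sets at least 2-fold lower (7 of 11) was also 7 of 11 under median centring, quantile normalization, loess centring (span 0.3) and no floor. It was 7 of 9 with a floor at the 75th percentile (16.5% of the array lower), 7 of 10 with 1 value per gene by either rule, 6 of 8 when the floor was raised to a value of 6 (16.9%), 8 of 11 at 1.5-fold, 6 at 3-fold and 4 at 4-fold. Over all single-symbol probe sets, lower and higher counts were 2889 and 2857 at 1.5-fold, 803 and 486 at 3-fold and 489 and 245 at 4-fold, against 1655 and 1318. The background share of lower probe sets was 20.4% at 1.5-fold, 5.66% at 3-fold, 3.45% at 4-fold and 7.27% with no floor. No member difference changed sign under the 3 normalizations, and none moved by more than 0.10. The median of the polarity list, -0.23, was -1.16 with 1 value per gene, because Rhoa and Cdc42 then count once. With values under the floor set to it, Tfap2a, Hand1 and Elf5 moved as given above. Signal over background is unknown, which limits statements on values near the floor. No paired analysis was possible because there is 1 sample on each side, and none could be left out.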

Other observations

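The genes next to the members on the chromosome were read from the RefSeq order, taking on each side the nearest protein-coding gene with a probe set of its own, by the probe set with the highest mean. Of these 20 neighbours 15 reached the floor. Of the 15, 1 was lower, against 11.7% of the array, 1 was higher, against 9.28%, and 13 stayed within 2-fold. Counts so small cannot be told from the array's shares. The median log2 difference of all 20 was -0.09. Next to Gata2, Rpn1 read 8.55 in EWS-OCT4A-GFP cells and 8.98 in GFP cells, and Eefsec read 6.94 in EWS-OCT4A-GFP cells and 7.11 in GFP cells. Next to Gata3, Taf3 differed by 0.08 and Celf2 by -0.89. Next to Tfap2a, Gcnt2 differed by 0.24 and Ofcc1 lay under the floor. Next to Hand1, Sap30l differed by -0.03 and Larp1 by -0.01. The lower neighbour was Tspan9, a tetraspanin gene beside Tead4, with 4.33 in EWS-OCT4A-GFP cells and 6.04 in GFP cells, a difference of -1.72 where Tead4 itself differed by -0.30. The higher neighbour was Psmg1, a proteasome assembly factor gene beside Ets2, with a difference of 1.25. The neighbours named here were chosen after their values were seen.

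The 5 genes closest to Gata2 by Euclidean distance over its 2 log2 values were App, Tinagl1, Mbnl3, Gjb2 and Zfp36l3, at distances from 0.16 to 0.47. With 2 samples this likeness says only that both values are close. App read 4.35 in EWS-OCT4A-GFP cells and 9.88 in GFP cells, beside Gata2 at 4.29 in EWS-OCT4A-GFP cells and 9.74 in GFP cells. Probe set 17381546, whose annotation includes Gata3 along with other genes, read 2.67 in EWS-OCT4A-GFP cells and 2.73 in GFP cells, under the floor in both.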
